A study of Danio rerio with 6 samples.

Results

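The enzymes that make, recycle and use glutathione, together with the thioredoxins, peroxiredoxins and glutaredoxins, were followed in zebrafish larvae kept in leachate of tire wear particles. The members were chosen by symbol: a gene counted if its symbol began with gst, mgst, gpx, prdx, txn, glrx, srxn, gclc or gclm, or was gss or gsr, and symbols beginning with txnip were left out. This rule took 57 of the 24826 genes in the deposited table, and all 57 were among the 23761 genes that passed edgeR's filter on low counts. The table held no gene with a count under 1 in any sample, so family genes missing from 1 library are not analysed here. The 57 members comprised 3 genes of glutathione synthesis, 2 reductases, 16 soluble glutathione transferases, 5 microsomal glutathione transferases, 8 glutathione peroxidases, 6 peroxiredoxins with sulfiredoxin, 2 thioredoxins, 10 thioredoxin-like proteins and 4 glutaredoxins.

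All larvae were wild type and whole larvae were sequenced. The 3 control samples came from medium with 0.001% bovine serum albumin, labelled a surfactant control, and the 3 treated samples from leachate of tire wear particles named TWP 700. The titles give 700 as a treadwear grade while the design text speaks of concentrations, so the number is used here as a name; no albumin is recorded for the leachate samples. In both groups 200 eggs per dish were exposed from 4 to 168 h after fertilization, with a move to clean dishes at 72 h, and each sample was a pool of 80 larvae, so no value describes a single animal. Samples are called control 1 to 3 and leachate 1 to 3 after the numbers in their titles.

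Glutathione is a cysteine-containing tripeptide that reduces peroxides through glutathione peroxidases and is attached to reactive chemicals by glutathione transferases. Peroxiredoxins reduce peroxides with electrons from thioredoxin, glutaredoxins draw theirs from glutathione, and both chains end at reductases that spend NADPH. In vertebrates many of these genes are targets of the transcription factor Nrf2, which is held down by Keap1, and in fish larvae the liver, gut and gills are known sites of glutathione conjugation.

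The libraries held 37030725 to 48431952 counted reads. A count of 3, taken as the limit of what could be seen, corresponded to 0.0623 to 0.0817 CPM (counts scaled to library size, here by edgeR's trimmed mean of M-values, TMM). Among the members, control 2 was the lowest control for 36 of 57 genes (63.2%, against 39.5% of all genes tested) and leachate 1 the lowest leachate sample for 38 of 57 (66.7%, against 38.7%). Control 3 was the lowest control for 4 members (7.02%, against 32.3% of all genes). The counts of members called are given with and without these libraries below.

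Of 57 members, 13 were higher in leachate larvae and 2 were lower at an adjusted p under 0.05 in edgeR's quasi-likelihood test, with Benjamini-Hochberg adjustment over all genes tested. The 13 made up 22.8% of members, where 7.87% of all genes tested were called higher, and the 2 made up 3.51%, where 7.29% were called lower. The changes were led by prdx1, gstp2, gsto2 and txn among the risers, and by txnl1 and gstcd among the fallers. The other 42 members did not pass the test, and 9 of them had an adjusted p between 0.05 and 0.1, as did 1769 of the 23761 genes tested. The median log2 fold change was 0.23 over the members and -0.0026 over all genes, and 42 members had a positive value against 15 negative. For 21 members every leachate sample was above every control, and for 4 every leachate sample was below, where 17.9% and 17.1% of all genes separated in these directions. Members were shorter and more abundant than the typical gene, with a median relative length of 1126 against 2410 bases and a median CPM of 29.6 against 8.52; the part of length and abundance in the counts was not tested beyond the length-corrected fit below. In pooled whole larvae, fewer cells of a type and less RNA per cell cannot be told apart.

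**Figure D1:**
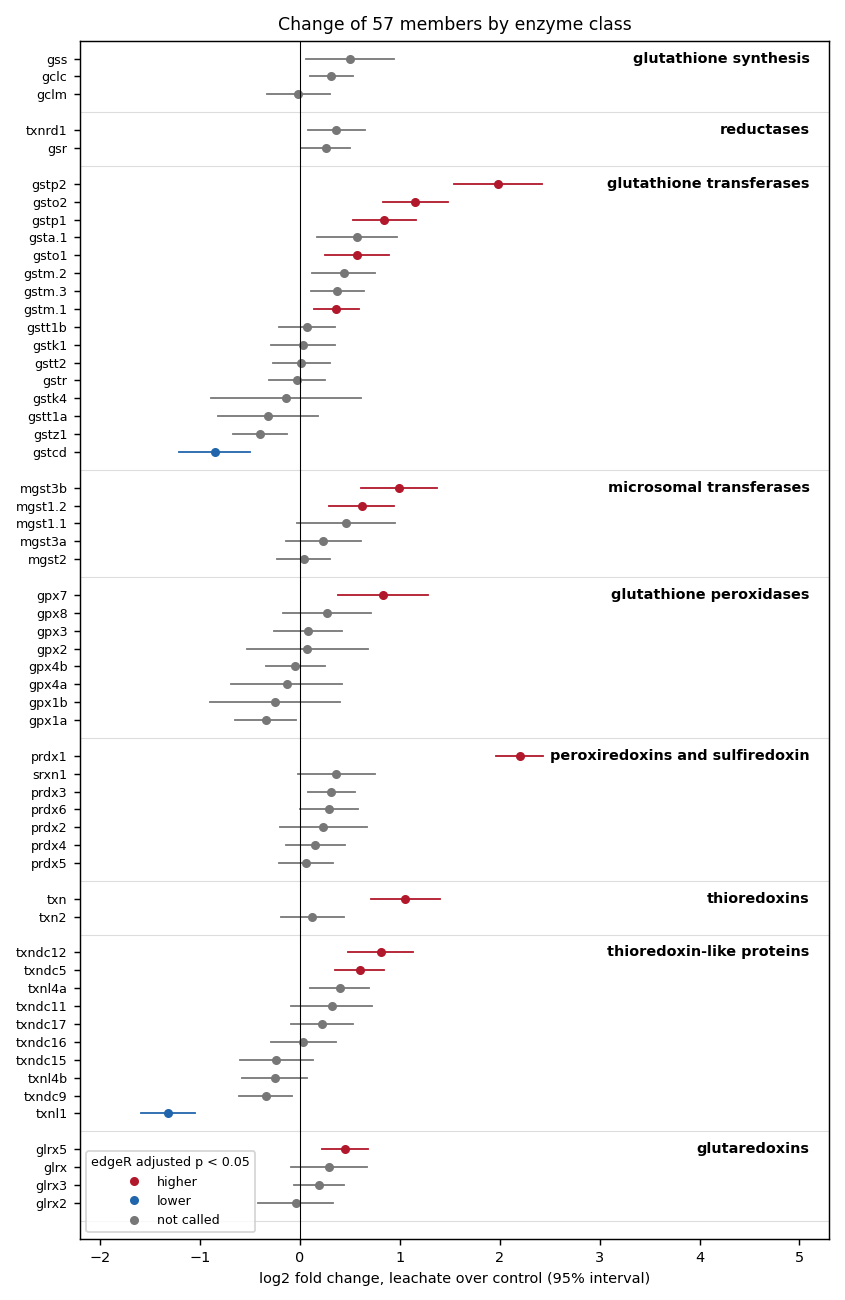
Log2 fold change of each of the 57 members, leachate over control, by enzyme class; points are edgeR estimates and bars are 95% intervals from 3 samples a group, with members past the adjusted threshold coloured. The 13 higher members spread over 7 of the 9 classes, while the interval of most others crosses or nears 0.

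The counts moved with single libraries and with scaling. Without control 1, 8 members were higher (4.06% of all genes were higher in that fit), and without leachate 2, 8 were higher (4.72% of all genes). Without control 2, 14 members were higher (8.61% of all genes) and 5 lower (8.33%). Without leachate 1, 12 were higher (5.67% of all genes) and 2 lower (5.38%). Without control 3, 14 were higher (6.49% of all genes) and 2 lower (5.52%). With control 2 and leachate 1 both left out, 16 were higher (11.1% of all genes) and 6 lower (10.9%). With library totals in place of TMM, 22 members were higher (11.8% of all genes) and 2 lower (3.65% of all genes), and the median of all genes moved up to 0.13. In a further fit, the trend on gene length of each library's deviations from the gene means was removed. With that setting, added after the values were seen, 16 members were higher (9.31% of all genes) and 5 lower (9.17% of all genes).

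Across 17 fits, which changed the scaling, the filter, the tool, the model or the samples, 8 higher members and 2 lower members kept an adjusted p under 0.05. The 8 were prdx1, gstp2, gsto2, txn, mgst3b, gstp1, txndc12 and txndc5, and the 2 were gstcd and txnl1. Their highest adjusted p over these edgeR, DESeq2 and limma fits was 0.0319. The other 5 higher members, gstm.1, gsto1, mgst1.2, gpx7 and glrx5, lost the call in 1 or more fits. Of the 42 members that did not pass, 14 passed in 1 or more of these fits. How many of all genes tested kept, lost or gained a call over these fits was not computed.

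**Figure D2:**
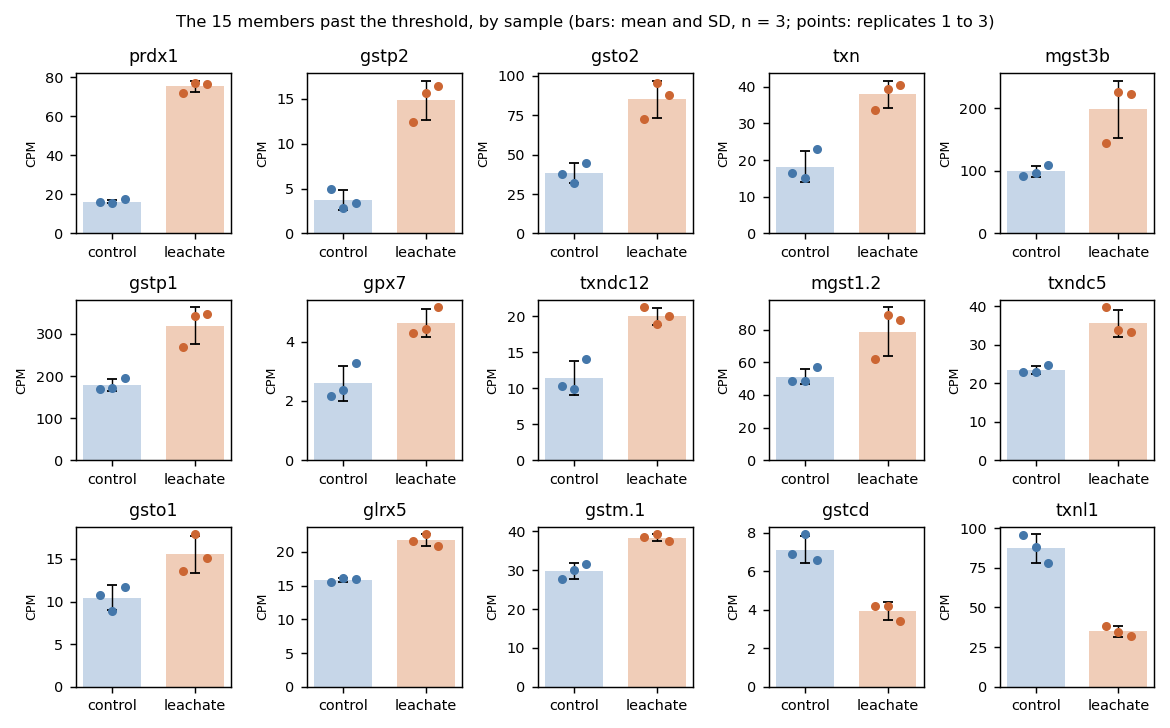
CPM in each of the 6 samples for the 15 members called higher or lower, with 1 panel per gene and each axis starting at 0; points are samples, bars are group means and whiskers the SD (n = 3). In all 15 panels the 3 leachate points lie on one side of the 3 control points.

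None of the 3 synthesis genes or the 2 reductases passed edgeR's adjusted threshold. Unadjusted edgeR p-values were under 0.05 for 2 of the 3 and for both reductases, and also for 7070 of the 23761 genes tested. Of the 5 synthesis and reductase genes, DESeq2 called 1, gclc, and limma's voom fit called none. The catalytic subunit of glutamate-cysteine ligase, gclc, which carries out the rate-limiting step, measured 38.2, 35.9 and 38.3 CPM in controls and 47.2, 46.8 and 45.8 in leachate samples. The groups did not overlap, and the log2 fold change of 0.32 (95% interval 0.10 to 0.53) had an adjusted p of 0.0512. Its modifier subunit, gclm, measured 14.8, 12.4 and 18.1 CPM in controls and 16.0, 14.3 and 14.5 in leachate samples. These overlapped, with a log2 fold change of -0.01 and a 95% interval from -0.33 to 0.31. For gss, the synthetase that adds glycine, values were 5.48, 6.86 and 6.64 CPM in controls and 11.6, 8.67 and 6.54 in leachate samples. Leachate 1 was the high sample and leachate 3 lay among the controls (log2 0.50 ± 0.20 SE, adjusted p = 0.118).

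Glutathione reductase, gsr, which regenerates glutathione with NADPH, measured 29.6, 25.3 and 30.2 CPM in controls and 32.0, 36.5 and 33.4 in leachate samples. The thioredoxin reductase listed as txnrd1, which RefSeq names txnrd3 and whose family does the same for thioredoxin, measured 109, 95.2 and 123 CPM in controls and 130, 143 and 149 in leachate samples. In both genes the leachate samples were above all controls by a small margin, and the tests missed the threshold (log2 0.26 and 0.37, adjusted p = 0.147 and 0.0805). Both were called only with library totals as the scaling, or for txnrd1 also with control 2 and leachate 1 left out.

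The soluble glutathione transferases conjugate glutathione to electrophiles, and 5 of the 16 were higher (gstp2, gsto2, gstp1, gsto1 and gstm.1) and 1 was lower (gstcd). The class median was a log2 fold change of 0.22. In the reported fit 7.87% of all genes were higher and 7.29% lower, for comparison with this and every class below. The number higher was 3 without control 1, leachate 2 or leachate 3, where 4.06%, 4.72% and 4.69% of all genes were higher. With library totals it was 8, where 11.8% of all genes were higher.

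The pi class showed the steepest rise of the transferases. The minor gene gstp2 measured 4.90, 2.83 and 3.44 CPM in controls and 12.4, 15.7 and 16.4 in leachate samples. Every leachate sample was over the highest control by a wide margin, a log2 fold change of 1.98 ± 0.20 SE (adjusted p = 1.5e-04). Its major partner gstp1 measured 169, 171 and 194 CPM in controls and 270, 342 and 347 in leachate samples. It rose by 0.84 ± 0.14 on the log2 scale (adjusted p = 0.00313), with leachate 1 the lowest treated sample. The pair sit next to each other in RefSeq's GRCz12tu annotation, where they are named gstp1.1 and gstp1.2, and no source used here states how reads shared by such close copies were divided, which leaves the split between them uncertain.

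The omega class, known in mammals for thioltransferase and dehydroascorbate reductase activity, rose in both members. For gsto2 the controls measured 37.7, 32.2 and 44.8 CPM and the leachate samples 72.6, 95.5 and 87.7, a log2 fold change of 1.16 ± 0.15 SE (adjusted p = 5.7e-04). Its neighbour gsto1 measured 10.7, 8.90 and 11.7 CPM in controls and 13.6, 17.9 and 15.1 in leachate samples. That was a smaller step of 0.57 ± 0.15 (adjusted p = 0.0241), and the call was lost without control 1, leachate 2 or leachate 3 (adjusted p = 0.0760, 0.105 and 0.0668). The same caution on shared reads holds for this adjacent pair and for gstm.1 to gstm.3, gstk1 with gstk4 and mgst1.1 with mgst1.2.

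The mu class, a family of cytosolic transferases, gave 3 genes with like values. The call fell on gstm.1, with 27.7, 30.2 and 31.7 CPM in controls and 38.5, 39.2 and 37.4 in leachate samples (log2 0.36 ± 0.10 SE, adjusted p = 0.0348). It was lost without control 1, leachate 1, leachate 2 or leachate 3, at adjusted p from 0.0651 to 0.153. For gstm.2 and gstm.3 the groups also did not overlap, and the adjusted p were 0.0642 and 0.0555 at log2 fold changes of 0.44 and 0.38. The alpha class gene gsta.1 measured 96.7, 66.6 and 116 CPM in controls and 126, 153 and 137 in leachate samples. Control 2 was far below the other controls, and the log2 fold change of 0.57 ± 0.18 SE had an adjusted p of 0.0581. It passed in 5 other fits, among them DESeq2 (adjusted p = 0.0227) and the fit without control 3 (log2 0.76, adjusted p = 0.0186).

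The lower member was gstcd, a protein with a transferase-like C-terminal domain. It measured 6.87, 7.92 and 6.57 CPM in controls and 4.21, 4.20 and 3.39 in leachate samples, a log2 fold change of -0.85 ± 0.16 SE (adjusted p = 0.00557). The zeta class gene gstz1, which acts as maleylacetoacetate isomerase in tyrosine breakdown, measured 50.1, 45.9 and 59.5 CPM in controls and 36.3, 40.1 and 42.0 in leachate samples. All leachate samples were under all controls, at a log2 fold change of -0.40 and an adjusted p of 0.0507 that passed under 7 of the other settings, among them DESeq2 and leaving out control 2. The theta, kappa and rho members (gstt1a, gstt1b, gstt2, gstk1, gstk4 and gstr) had log2 fold changes from -0.32 to 0.07 with adjusted p from 0.389 to 0.954.

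The microsomal glutathione transferases are membrane enzymes that act on lipid-derived and foreign electrophiles. Of 5 members 2 were higher, all 5 had a positive log2 fold change, and the median was 0.46. The number higher was 1 without control 1, leachate 2 or leachate 3, where 4.06%, 4.72% and 4.69% of all genes were higher. The riser with the larger step was mgst3b, at 91.9, 97.3 and 109 CPM in controls and 145, 226 and 222 in leachate samples (log2 0.99 ± 0.17 SE, adjusted p = 0.00338). Leachate 1 was again the lowest treated sample but above every control. For mgst1.2 the controls measured 48.7, 48.2 and 56.8 CPM and the leachate samples 61.7, 88.7 and 85.9 (log2 0.62 ± 0.15 SE, adjusted p = 0.0168). Here leachate 1 lay just above the highest control, and the call was lost without control 1, leachate 2 or leachate 3. The remaining members mgst1.1, mgst3a and mgst2 did not pass, at log2 fold changes of 0.46, 0.23 and 0.04.

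**Figure D3:**
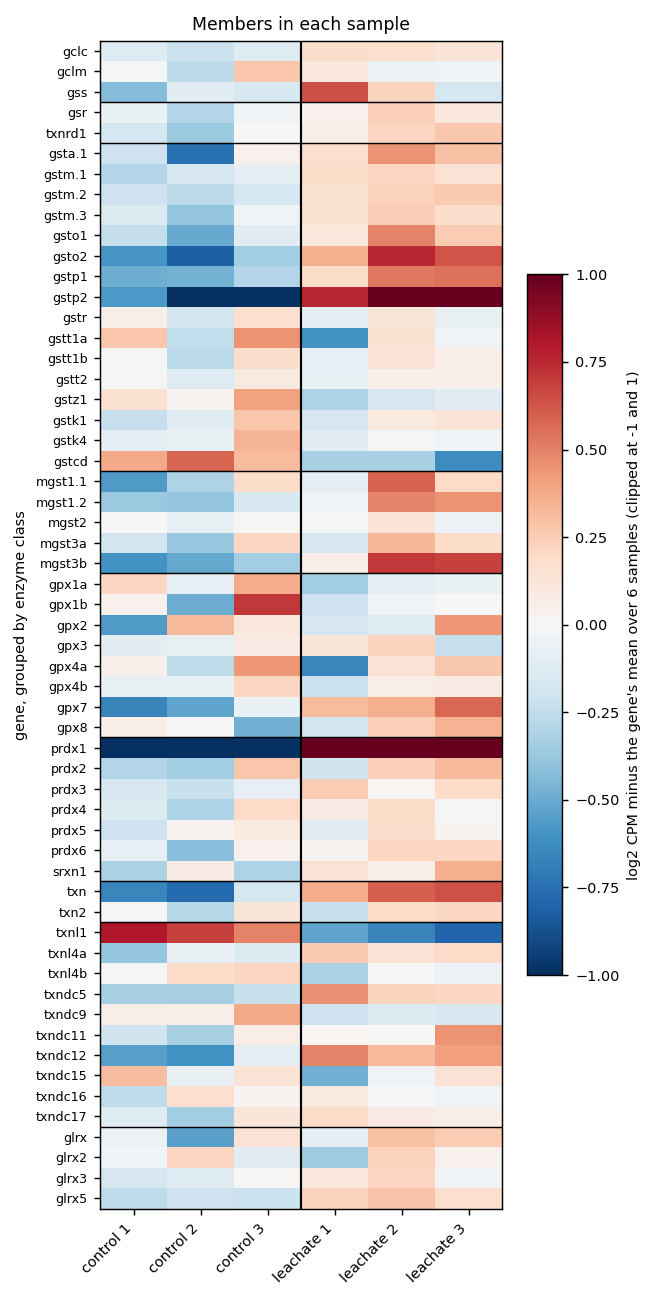
Each member's log2 CPM in each sample as the deviation from its own mean over all 6 samples; rows are the 57 members grouped by class, columns are samples, red is above and blue below that mean, and colours stop at -1 and 1. Rows such as prdx1, gstp2 and txnl1 split cleanly at the group border, while many others show control 2 and leachate 1 low and control 3 high.

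Of the 8 glutathione peroxidases 1 was higher, 4 had a positive and 4 a negative log2 fold change, and the median was 0.02. The riser was gpx7, a peroxidase of the endoplasmic reticulum known in mammals to pass peroxide oxidation on to protein disulfide isomerases. It measured 2.16, 2.37 and 3.27 CPM in controls and 4.30, 4.42 and 5.15 in leachate samples (log2 0.83 ± 0.21 SE, adjusted p = 0.0199), and the call was lost without control 1, leachate 2 or leachate 3 (adjusted p = 0.0875, 0.0537 and 0.0814). The partner gpx8 overlapped between groups, with a log2 fold change of 0.27.

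The most abundant member by TPM (the authors' transcript level adjusted for gene length) was gpx4a, one of the pair of phospholipid hydroperoxide peroxidases that reduce peroxidized membrane lipids. It measured 531, 429 and 692 CPM in controls and 326, 564 and 616 in leachate samples. Samples of the same group differed more than the group means, and the log2 fold change of -0.13 had a 95% interval from -0.69 to 0.43. For gpx4b the controls spanned 107 to 130 CPM and the leachate samples 97.2 to 120. The cytosolic peroxidase gpx1a measured 82.7, 67.1 and 91.9 CPM in controls and 56.0, 66.6 and 68.1 in leachate samples. It overlapped through control 2 and did not pass (log2 -0.34 ± 0.14 SE, adjusted p = 0.122); without control 2 it passed in edgeR at a log2 fold change of -0.46 (adjusted p = 0.0194). The others, gpx1b, gpx2 and gpx3, had log2 fold changes of -0.25, 0.08 and 0.08.

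Among the peroxiredoxins, and among all 57 members, the largest change was that of prdx1, a cytosolic peroxiredoxin that reduces hydrogen peroxide and, in mammals, is a well-known Nrf2 target. It measured 16.0, 15.6 and 17.5 CPM in controls and 72.0, 77.2 and 76.7 in leachate samples. The samples of each group lay close together and far from the other group, a log2 fold change of 2.20 ± 0.11 SE (adjusted p = 2.2e-06). A further cytosolic peroxiredoxin, prdx2, which is abundant in red blood cells, measured 302, 289 and 446 CPM in controls and 322, 435 and 463 in leachate samples. These overlapped, and the log2 fold change of 0.23 had a 95% interval from -0.20 to 0.67.

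The other 5 genes of the class did not pass the test, although all 7 had a positive log2 fold change and the class median was 0.29. The mitochondrial prdx3 measured 21.6, 20.7 and 22.8 CPM in controls and 28.8, 24.6 and 27.7 in leachate samples, without overlap (log2 0.32, adjusted p = 0.0746). The secretory-pathway prdx4, the mitochondrial and peroxisomal prdx5 and the bifunctional prdx6 had log2 fold changes of 0.15, 0.06 and 0.29. Sulfiredoxin, srxn1, which repairs overoxidized peroxiredoxins, measured 4.03, 5.31 and 4.05 CPM in controls and 5.56, 5.20 and 6.46 in leachate samples. Leachate 2 lay under control 2, and the log2 fold change of 0.37 ± 0.18 SE had an adjusted p of 0.191.

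The thioredoxin gene txn, which RefSeq names txnb, measured 16.5, 15.2 and 23.0 CPM in controls and 33.7, 39.4 and 40.6 in leachate samples. It rose in all 3 leachate samples over the highest control, by 1.05 ± 0.16 SE on the log2 scale (adjusted p = 0.00149). The mitochondrial thioredoxin txn2 measured 30.0, 24.9 and 33.0 CPM in controls and 26.0, 34.8 and 35.0 in leachate samples, which overlapped (log2 0.12, adjusted p = 0.619). The gene that RefSeq names txna, a further thioredoxin, stands in the table as zgc:56493 and so was outside the symbol rule. Its mean was 114 CPM in controls and 139 in leachate samples (log2 0.30, adjusted p = 0.164).

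Of the 10 thioredoxin-like proteins 2 were higher and 1 was lower. Both risers are proteins of the endoplasmic reticulum that act on disulfide bonds. For txndc12 the controls measured 10.3, 9.86 and 14.1 CPM and the leachate samples 21.2, 18.8 and 20.0 (log2 0.81 ± 0.15 SE, adjusted p = 0.00445). For txndc5, a protein disulfide isomerase, the controls measured 22.9, 22.9 and 24.7 CPM and the leachate samples 39.6, 33.7 and 33.4 (log2 0.60 ± 0.11 SE, adjusted p = 0.00465). In contrast to most risers, leachate 1 was the highest treated sample in both genes.

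The steepest fall among the members was that of txnl1, a thioredoxin-like protein that in human cells binds the proteasome. It measured 95.6, 88.3 and 77.7 CPM in controls and 38.2, 34.7 and 31.7 in leachate samples. All leachate values were under the lowest control by a wide margin, at a log2 fold change of -1.32 ± 0.12 SE (adjusted p = 8.7e-05). The chaperonin cofactor txndc9 measured 63.9, 63.3 and 79.4 CPM in controls and 52.8, 55.4 and 54.6 in leachate samples; it did not overlap and missed the threshold (log2 -0.34, adjusted p = 0.0756). The spliceosome component txnl4a went the other way without overlap, at 6.56, 8.14 and 7.81 CPM in controls against 10.3, 9.49 and 9.80 in leachate samples (log2 0.40, adjusted p = 0.0713). The remaining txnl4b, txndc11, txndc15, txndc16 and txndc17 had log2 fold changes from -0.25 to 0.32 and adjusted p from 0.288 to 0.905.

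Of the 4 glutaredoxins 1 was higher, glrx5, a mitochondrial protein needed for iron-sulfur cluster assembly, whose loss in zebrafish impairs haem synthesis in red cells. It measured 15.5, 16.1 and 16.0 CPM in controls and 21.6, 22.6 and 20.9 in leachate samples, a small step with little spread in either group (log2 0.45 ± 0.11 SE, adjusted p = 0.0153). The call was lost without control 1 or leachate 2 (adjusted p = 0.0707 and 0.0658). The cytosolic glrx measured 40.7, 29.0 and 46.9 CPM in controls and 39.8, 52.0 and 50.6 in leachate samples, overlapping (log2 0.29, adjusted p = 0.299). For glrx2 and glrx3 the log2 fold changes were -0.04 and 0.19.

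Some members were also grouped by the compartment known for the human proteins, an incomplete grouping made with these values known. Of the 7 assigned to the endoplasmic reticulum 3 were higher (gpx7, txndc5 and txndc12), where 7.87% of all genes were higher. The count was 2 without control 1, leachate 2 or leachate 3 (4.06%, 4.72% and 4.69% of all genes). All 7 had a positive log2 fold change, and the median was 0.32. The microsomal transferases and txndc15 (log2 -0.24) were given no compartment, so these counts depend on the assignment. Of the 6 mitochondrial members 1 was higher (glrx5), 5 had a positive log2 fold change, and the median was 0.09. The difference between compartments was not tested.

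Summed transcript level per class, in TPM, set these changes against abundance. The authors' TPM lay higher overall in the leachate samples, with a median leachate over control ratio of 1.12 over all genes, against 1.33 over the members. All 57 members together summed to 3232, 2769 and 3295 TPM in controls and 3842, 4175 and 4215 in leachate samples, a ratio of means of 1.32. The soluble transferases went from 787 ± 71.3 to 1206 ± 24.9 TPM (SD, n = 3), the microsomal transferases from 238 ± 9.82 to 421 ± 44.8, and the thioredoxins from 61.0 ± 6.60 to 112 ± 2.34. The groups did not overlap in these 3 classes, nor in synthesis, reductases, peroxiredoxins or glutaredoxins. The share of all genes that separate in TPM was not computed. The upward shift of the all-gene median favours such separation, so it is given as a description only. The thioredoxin class leaves out txna, which lies outside the symbol rule. That gene alone had means of 199 TPM in controls and 275 in leachate samples, above the sum of the class. The glutathione peroxidases summed to 1007 ± 143 TPM in controls and 1030 ± 160 in leachate samples, with overlap, and the thioredoxin-like proteins to 196 ± 14.9 and 176 ± 18.1.

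The makeup of the system by TPM differed accordingly. Peroxidases supplied 32.5% of the members' TPM in controls and 25.3% in leachate samples, while soluble transferases supplied 25.4% and 29.6% and microsomal transferases 7.68% and 10.3%. The 3 most abundant members, gpx4a, prdx2 and gstp1, held 42.3% of the members' TPM in controls and 41.2% in leachate samples. These shares are descriptions with no test.

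**Figure D4:**
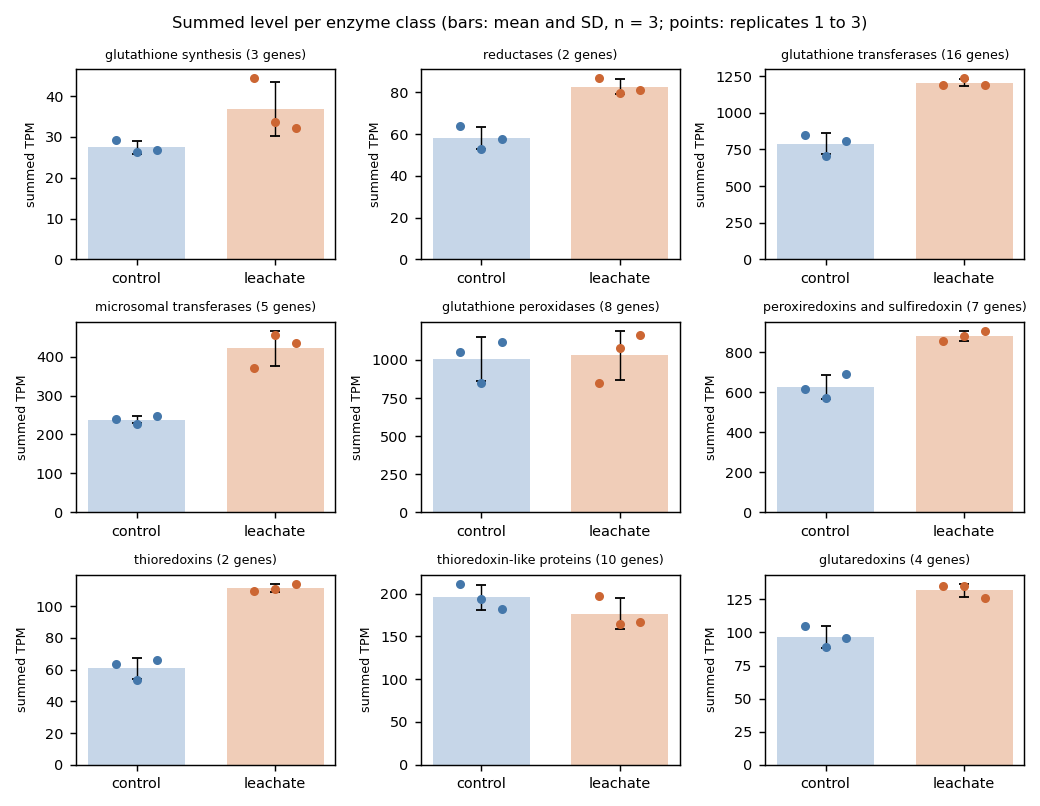
Summed TPM of each enzyme class in each sample, with 1 panel per class and each axis starting at 0; points are samples, bars are group means and whiskers the SD (n = 3). The groups overlap for the peroxidases, at means of 1007 and 1030 TPM, and for the thioredoxin-like proteins, and lie apart in the other 7 classes. The median TPM ratio of all genes was also above 1, at 1.12, and the share of all genes that separate was not computed. The thioredoxin panel leaves out txna.

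Paired family members were compared within each sample as a ratio of TPM, which takes out a library's scaling. Of 10 pairs, 6 did not overlap between groups, each at a two-sided exact permutation p of 0.1, the smallest that 3 against 3 samples allow, and 0.167 after adjustment over the 10 pairs. How often other gene pairs separate was not computed. Among single genes 17.9% separated upward and 17.1% downward in CPM. In each of the 6 pairs except gstt1a with gstt1b, the first gene was itself called higher, so these ratios are not independent of the calls. The ratio of prdx1 to prdx2 was 0.0442, 0.0449 and 0.0327 in controls and 0.186, 0.148 and 0.138 in leachate samples, so prdx1 remained below prdx2. The ratio of gstp2 to gstp1 was 0.0366, 0.0209 and 0.0224 in controls and 0.0581, 0.0580 and 0.0599 in leachate samples. The ratio of txn to txn2 was 1.03, 1.14 and 1.31 in controls and 2.43, 2.12 and 2.17 in leachate samples.

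The thioredoxin txn went from about level with the mitochondrial txn2 to above it in each leachate sample. The further thioredoxin txna, outside the symbol rule, was not paired here. Its means were 199 TPM in controls and 275 in leachate samples, above those of txn, at 32.7 and 77.1. The ratio of gsto2 to gsto1 was 5.09, 5.26 and 5.54 in controls and 7.72, 7.74 and 8.41 in leachate samples, and that of mgst3b to mgst3a was 1.25, 1.51 and 1.13 against 1.92, 2.12 and 2.32. The ratio of gstt1a to gstt1b moved the other way, from 3.44, 2.85 and 3.38 to 1.96, 2.82 and 2.61, with control 2 and leachate 2 nearly touching. The pairs mgst1.2 with mgst1.1, gpx1a with gpx1b, gpx4a with gpx4b and gpx7 with gpx8 overlapped between groups (exact permutation p from 0.3 to 0.6).

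**Figure D5:**
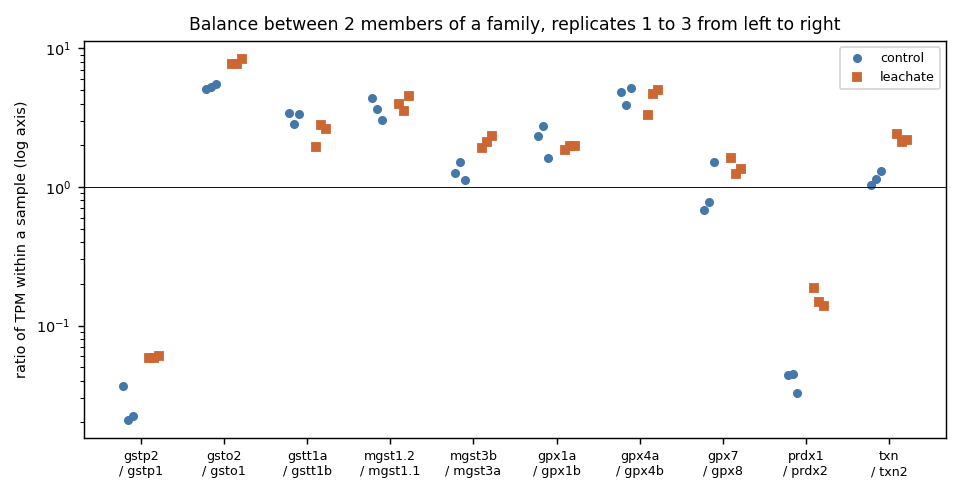
Ratio of TPM between 2 members of a family, in each of the 6 samples and for 10 pairs, on a log axis; circles are controls, squares are leachate samples and the line marks a ratio of 1. In 6 pairs the leachate points lie apart from the controls, with the widest gap for prdx1 over prdx2.

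Genes around the system were counted from 5 lists: Nrf2 control, other antioxidant enzymes and Nrf2 targets, glutathione supply, NADPH supply, and selenoproteins with their synthesis. Of 140 genes tested outside the members, 31 were higher (22.1%) and 13 lower (9.29%), and their median log2 fold change was 0.08. Beside these counts and those of each list below stand the 7.87% and 7.29% of all genes given above. The lists were drawn up with earlier results of these data known. The listed genes were more abundant than the typical gene, with a median CPM of 27 against 8.52. The part of abundance in the counts was not tested. The number higher was 17 without control 1 (4.06% of all genes) and 20 without leachate 3 (4.69% of all genes). The number lower was 8 without control 1 (3.8% of all genes), 7 without leachate 2 (3.75%) and 6 without leachate 3 (3.87%). With control 2 and leachate 1 both left out, 22 were lower (10.9% of all genes).

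In the Nrf2 control list, 2 of 21 genes were higher (9.52%, against 7.87% of all genes) and 5 lower (23.8%, against 7.29%). Of the Nrf2 paralogs, nfe2l2b measured 2.78, 1.28 and 3.42 CPM in controls and 6.60, 8.71 and 7.96 in leachate samples (log2 1.63 ± 0.29 SE, adjusted p = 0.00556). The more abundant nfe2l2a measured 164, 154 and 163 CPM against 210, 214 and 217 (log2 0.42, adjusted p = 0.0337). Whether the paralogs act alike on the members was not tested. The call of nfe2l2a was lost without control 1, control 3, leachate 2 or leachate 3. Of the Keap1 genes, keap1b fell from 17.3, 20.8 and 15.3 CPM to 11.4, 10.3 and 8.51 (log2 -0.82, adjusted p = 0.00483), while keap1a did not pass (log2 0.24, adjusted p = 0.190). The repressor bach2a fell by 0.66 on the log2 scale (adjusted p = 0.0195), a call lost without control 1, leachate 2 or leachate 3 and with library totals. The other lower genes were nfe2l1a, cul3b and sqstm1, at log2 fold changes of -0.55, -0.50 and -0.40 (adjusted p = 0.0202, 0.0111 and 0.0435). The list's count of lower genes was 2 without control 1 (3.8% of all genes) and 1 without leachate 2 (3.75%) or leachate 3 (3.87%). With library totals it was 1 (3.65% of all genes). The list's count of higher genes was 1 without control 1 (4.06% of all genes), control 3 (6.49%), leachate 2 (4.72%) or leachate 3 (4.69%).

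Among the other antioxidant enzymes and Nrf2 targets, 7 of 24 were higher and 2 lower. The steepest was the gene RefSeq names ptgr1.2, listed as si:dkey-11k2.7, a prostaglandin reductase, at 3.16, 2.53 and 2.86 CPM in controls and 11.1, 13.6 and 14.3 in leachate samples (log2 2.18, adjusted p = 2.1e-05). The quinone reductase nqo1 rose by 0.70 (adjusted p = 0.00162) and the biliverdin reductase blvra by 0.85 (adjusted p = 0.00512) on the log2 scale. Haem oxygenase hmox1a, itself a well-known Nrf2 target in mammals, fell from 42.8, 34.7 and 43.2 CPM to 19.5, 19.4 and 20.2 (log2 -1.03, adjusted p = 2.6e-04), and the methionine sulfoxide reductase msra fell by 0.55 on the log2 scale (adjusted p = 0.0137), a call lost without leachate 3. Without leachate 3 the list held 4 higher genes and 1 lower, where 4.69% and 3.87% of all genes were called.

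In glutathione supply, breakdown and export, 9 of 38 genes were higher and 3 lower. The gamma-glutamyltransferase ggt1b, which cleaves glutathione outside the cell, measured 4.09, 3.87 and 4.36 CPM in controls and 11.3, 13.6 and 11.1 in leachate samples (log2 1.55, adjusted p = 8.5e-05). The liver methionine adenosyltransferase mat1a, at the head of the route from methionine to cysteine, rose from 60.6, 62.8 and 63.4 CPM to 158, 154 and 136 (log2 1.26, adjusted p = 7.6e-05). The dipeptidase dpep2 fell from 23.7, 21.7 and 22.0 CPM to 10.7, 10.6 and 10.8 (log2 -1.07, adjusted p = 1.4e-04). The cystine carrier slc7a11 was near 1.5 CPM in both groups and did not pass (log2 -0.04 ± 0.33 SE). The transferase-family gene ggt7 fell by 0.58 on the log2 scale (adjusted p = 0.0286), and that call was lost without control 1, control 2, leachate 2 or leachate 3 and with library totals. The list's lower count was 1 without control 1, leachate 2 or leachate 3, where 3.8%, 3.75% and 3.87% of all genes were lower.

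In the list named NADPH supply, 6 of 23 genes were higher and 1 lower. The list was drawn up by pathway, and NADPH itself was not measured. The risers with the largest steps were the mitochondrial folate enzymes mthfd2 and aldh1l2, at log2 fold changes of 1.26 (adjusted p = 0.00162) and 1.09 (adjusted p = 7.2e-04). The transketolase tkta fell by 0.63 on the log2 scale (adjusted p = 0.00433). In selenoproteins and their synthesis, 7 of 35 were higher and 2 lower: the deiodinase dio1 rose by 1.08 on the log2 scale (adjusted p = 0.00415), sephs1 rose by 0.92 (adjusted p = 0.0189), and the selenocysteine-insertion factors secisbp2 and secisbp2l fell by 0.59 and 0.55 (adjusted p = 0.00608 and 0.00924). The call of sephs1 was lost without control 1 or leachate 1, and that of secisbp2l with library totals (adjusted p = 0.0629). The number of higher selenoprotein genes was 1 without control 1 (4.06% of all genes) and 4 without leachate 1 (5.67%). It was 3 without leachate 2 (4.72% of all genes) and 2 without leachate 3 (4.69%).

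RefSeq places 3 family genes under names outside the symbol rule, of which txna is given above. The gene it calls gpx9, listed as si:ch73-111m19.2, had means of 26.5 CPM in controls and 16.9 in leachate samples and fell by 0.65 on the log2 scale (adjusted p = 0.0158). The gene it calls txnrd2.2, listed as si:ch1073-179p4.3, had means of 7.97 and 9.28 CPM and did not pass (log2 0.22, adjusted p = 0.388).

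Cell-type markers moved in the same samples, and their part in the members' values was not tested. All 39 listed markers stand in the table, which by its make-up holds no gene at 0. The sums below are in TPM, whose median over all genes was 1.12 times higher in leachate samples, while the log2 fold changes are on the TMM scale. Liver markers summed to 6250 to 6959 TPM in controls and 7167 to 8446 in leachate samples, with 1 of 7 higher (tfa). Their median log2 fold change was -0.29 and 4 of 7 were negative, and apoa2, which did not pass, went from a mean of 3623 to 4906 TPM. Intestine markers summed to 1254 to 1744 TPM and 2083 to 2323, with 1 of 6 higher and 1 lower and a median log2 of 0.15. Erythroid markers summed to 1292 to 1435 TPM in controls and 1445 to 1858 in leachate samples, with 2 of 7 higher (alas2 and slc4a1a); the 4 globins that make up most of the sum had log2 fold changes from -0.01 to 0.08 and did not pass. Markers of proliferating cells summed to 43.2 to 60.3 TPM and 114 to 182, with 3 of 6 higher (pcna, mcm5 and mcm2). Most of the sum was pcna, at means of 33.5 TPM in controls and 93.1 in leachate samples. The others, mki67, top2a and cdk1, did not pass in edgeR (adjusted p = 0.261, 0.338 and 0.0630). Lens markers summed to 1535 to 2132 and 1093 to 1240, with 5 of 7 lower. For leukocyte markers the sums were 107 to 112 and 111 to 136 TPM, with adjusted p from 0.408 to 0.877 for its 6 genes.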

How the data were processed

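RNA from 6 pools of whole zebrafish larvae was sequenced, 3 per group. Stranded total RNA libraries were prepared after removal of ribosomal RNA, from RNA whose integrity number was above 7, per the labels' protocols. Per the submitters' processing notes, HISAT2, StringTie 2.1.3b, DESeq2 and the GRCz11 build were used; the use of strand in counting and the treatment of reads shared by gene copies are not stated in the sources used here. Per the file headers, the authors deposited 1 table with read counts, FPKM and TPM per gene and sample. The deposited counts gave all tests, the authors' TPM gave levels between genes and ratios of family members, and the deposited FPKM served only, with the counts, to derive a relative gene length.

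Counts were fitted in R 4.3.3 with edgeR 4.0.16 (TMM scaling, filterByExpr, robust quasi-likelihood F test, group as the only term), with Benjamini-Hochberg adjustment over 23761 genes and a threshold of 0.05. The CPM use TMM-scaled library sizes, SE is the absolute log2 fold change divided by the square root of F, and intervals are 95% from the t distribution with the fit's degrees of freedom. The script was tested on simulated counts with known changes placed in genes above a minimum level. At an adjusted p under 0.05 in edgeR it recovered 9 of 50 genes changed 1.5-fold and 44 of 50 changed 2-fold. A member that did not pass is therefore not shown to be unchanged. The groups are those of the titles, which the labels call biological replicates; samples of a group differed by more than counting noise (chi-square over degrees of freedom at least 8.22). Counting limits cover counting error only.

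Members, gene lists and compartments were chosen with earlier results of these data known. Named genes were every member past the threshold, the most abundant and the most changed member of each class, and preset members. Up to 2 genes per direction of each pathway list were named, with presets. Other members are named to account for all 57, and the remaining lower genes of the Nrf2 control list to complete its count. The result of 1 preset pathway gene is not reported here. Of 147 pathway symbols 141 were matched, and all 57 members matched RefSeq (GRCz12tu) by gene ID, which was used for names and neighbours only. Alternatives were other scalings, DESeq2 1.42.0, limma 3.58.1 (voom), other filters, a threshold of 0.01, the robust option off, a replicate block, each sample left out, control 2 and leachate 1 left out together, and, added after the data were seen, removal of the gene length trend.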

Additional observations from a re-analysis of the deposited data

How the results depend on the processing

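Over 17 alternative fits, no called member changed sign, and the log2 fold changes of called members moved by at most 1.38 times. The 13 higher members became 22 with library totals, 16 with control 2 and leachate 1 left out (11.1% of all genes) and 8 at an adjusted p under 0.01. With 1 sample left out they ranged from 8 to 14. At an adjusted p under 0.01, 3.35% of all genes were higher and 2.91% lower. With 1 sample left out, 4.06% to 8.61% of all genes were higher and 3.75% to 8.33% lower. The 2 lower members became 6 with control 2 and leachate 1 left out and 5 with the length trend removed, and ranged from 2 to 5 with 1 sample left out; the added genes were gstz1, gpx1a and txndc9, and gstt1a with both samples out. Fewer samples enter the fits with samples left out, and the cause of these moves was not tested for any setting. The 31 higher pathway genes became 16 at an adjusted p under 0.01 and ranged from 17 to 29 with 1 sample left out. With library totals, or with control 2 and leachate 1 out, no pathway list's count of higher genes fell. In NADPH supply that count went from 6 to 10 with library totals (11.8% of all genes) and to 7 with both samples out (11.1%). The 13 lower pathway genes became 6 with library totals, 6 at an adjusted p under 0.01 and 22 with control 2 and leachate 1 out, and ranged from 6 to 16 with 1 sample left out. Of calls over all genes, 51.9% were higher in the reported fit and 76.4% with library totals, which moved the all-gene median to 0.13 (log2). Members that were not called changed sign with library totals: gclm to 0.13, gstr to 0.11, gpx4b to 0.091, glrx2 to 0.080 and slc7a11 of the pathway genes to 0.11. With control 2 and leachate 1 out, gpx4b came to 0.00105 and glrx2 to 0.21. With 1 sample left out, log2 fold changes crossed 0 within these limits: gclm -0.14 to 0.13, gstr -0.12 to 0.047, gstt1b -0.039 to 0.18, gstt2 -0.044 to 0.063, gstk1 -0.067 to 0.20, gstk4 -0.23 to 0.023, mgst2 -0.011 to 0.076, gpx1b -0.49 to 0.12, gpx2 -0.15 to 0.27, gpx3 -0.00069 to 0.21, gpx4a -0.31 to 0.10, gpx4b -0.10 to 0.054, prdx5 -0.023 to 0.13, txndc16 -0.075 to 0.13, glrx2 -0.17 to 0.11 and slc7a11 -0.37 to 0.25. Same-numbered samples did not deviate together (correlations -0.05, -0.10 and 0.03; 1 of 6 samples correlated best with its own number), so the numbers were not taken as pairs. With the replicate number as a block, 11 members were higher and 2 lower, 21 pathway genes were higher and 11 lower (5.54% and 5.25% of all genes), and gclm came to 0.00104; gstm.1 and gsto1 lost the call (adjusted p = 0.0856 and 0.0606), as did the pathway genes nfe2l2a, ggt7 and sephs1 (0.0791, 0.0533 and 0.0524). Depth was least for gstk4, at 0.450 to 0.630 CPM, and its log2 fold change had an SE of 0.34.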
